A study of Mus musculus with 12 samples.

Results

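The genes described here are 10 imprinted genes that regulate growth: H19, Igf2, Dlk1, Meg3, Peg3, Mest, Plagl1, Cdkn1c, Grb10 and Igf2r. They were chosen by name out of 54232 genes counted in SVR angiosarcoma tumors. H19 led the choice because its level was lower in the tumors given cediranib, so its values in those tumors are given as a description, with no test. Whether the combination tumors, which also received cediranib, entered that choice is not stated, and H19 is described without a test there too. The question for the other 9 was whether they followed H19. A filter on low counts kept 5 of the 10 for testing (H19, Mest, Igf2r, Grb10 and Plagl1), against 12897 of all 54232 genes.

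SVR is a mouse endothelial line transformed with viral and Ras oncogenes, labelled C57BL/6, and every tumor was a subcutaneous xenograft of this 1 line in nude mice. The 4 groups of 3 tumors received vehicle (10% cremaphor, 10% PEG 400 and 1% tween; called control here), trametinib at 1 mg/kg, cediranib at 3 mg/kg, or both drugs at these doses, each by daily gavage. Trametinib blocks the kinase MEK and cediranib blocks the VEGF receptors. By the labels, dosing began once tumors had established (3 to 7 days) and went on until ulceration or a size above 1 cm, so time on drug could differ between tumors. The study also describes an experiment with a single harvest time and does not say which of its experiments gave the RNA. The tumors were ground whole, and because line and host are both mouse, RNA of the injected cells and of host muscle, skin, vessels and fibroblasts falls into the same counts. In such bulk samples fewer cells of a type and less RNA per cell cannot be told apart. Nothing in the labels says more of the replicates than that they are separate tumors.

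Imprinted genes are transcribed mainly from 1 parental copy, which is set by DNA methylation laid down in the germ line. H19, Meg3, Cdkn1c, Grb10 and Igf2r are maternally expressed, and Igf2, Dlk1, Peg3, Mest and Plagl1 are paternally expressed. Igf2 is the growth factor of the group, Igf2r carries it to the lysosome for destruction, and Grb10 and Cdkn1c restrain growth through receptor signaling and the cell cycle. H19 is a non-coding RNA that shares its domain with Igf2. Many of these genes are high in the embryo, fall after birth, and can come back in growing or regenerating muscle and in tumors. The counts do not separate the parental copies, so allelic expression was not measured.

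H19 spans chr7:142575529-142577933 in GRCm38 on the minus strand, and the hairpin of the microRNA gene Mir675 lies inside an H19 exon. The Mest span on the plus strand of chr6:30723547-30748462 holds Mir335. Both microRNA genes are nearly empty in these libraries, with 10 counts for Mir675 and 5 for Mir335 over all 12 tumors, and Mir483, which lies within Igf2, had 0. Of the 10 Mir675 counts, 7 came from trametinib tumor 2 and 3 from control tumor 2, the 2 tumors with the highest H19. Small RNA is poorly kept by this kind of library, so these counts say little about the mature microRNAs. Their mature sequences from RefSeq (GRCm38.p6), shown because they are the products the 2 host RNAs can give, are printed 5′ to 3′ with the seed (bases 2 to 8) in capitals.
mmu-miR-675-5p: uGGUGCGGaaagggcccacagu
mmu-miR-675-3p: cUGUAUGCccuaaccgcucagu
mmu-miR-335-5p: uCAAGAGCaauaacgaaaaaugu
mmu-miR-335-3p: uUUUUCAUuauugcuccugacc
No 2 of these share a seed, and in the table of 1738 mature mouse microRNAs none of the 4 seeds occurs in another entry.

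Total counts ran from 9478865 to 11666094 per tumor. Levels are given in CPM, a gene's count relative to its library total, scaled by TMM, which corrects for differences in RNA composition. A floor of 3 counts stood at 0.251 to 0.349 CPM, which covers counting error only. Of the endothelium markers, Cdh5, a junction protein, ran from 6.89 to 120 CPM. Kdr ran from 1.54 to 20.0, Vwf from 1.74 to 14.7 and Pecam1 from 0.27 to 5.00 CPM. Emcn, a marker of venous and capillary endothelium, was at or below 0.30 CPM in every tumor. These markers do not separate injected cells from host vessels. The skeletal muscle markers stood apart in 2 libraries, control tumor 2 and trametinib tumor 2, with a summed level of 21429 and 32930 CPM against 26.0 to 2616 CPM in the other 10 tumors. Results that rest on these 2 tumors are given with and without them.

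Only 3 of the 10 genes had a substantial level. Per kilobase of gene model, the mean over the 12 tumors was 12.4 CPM for H19, 8.08 for Igf2r and 5.89 for Mest. Grb10 followed at 0.107 and Plagl1 at 0.0951 CPM per kilobase. The other 5 were at or below 0.0707 CPM per kilobase. H19 and Mest varied so widely among tumors that their order with Igf2r changes from tumor to tumor, and the libraries were enriched by exome probes, which also set how many reads a gene gives.

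**Figure D1:**
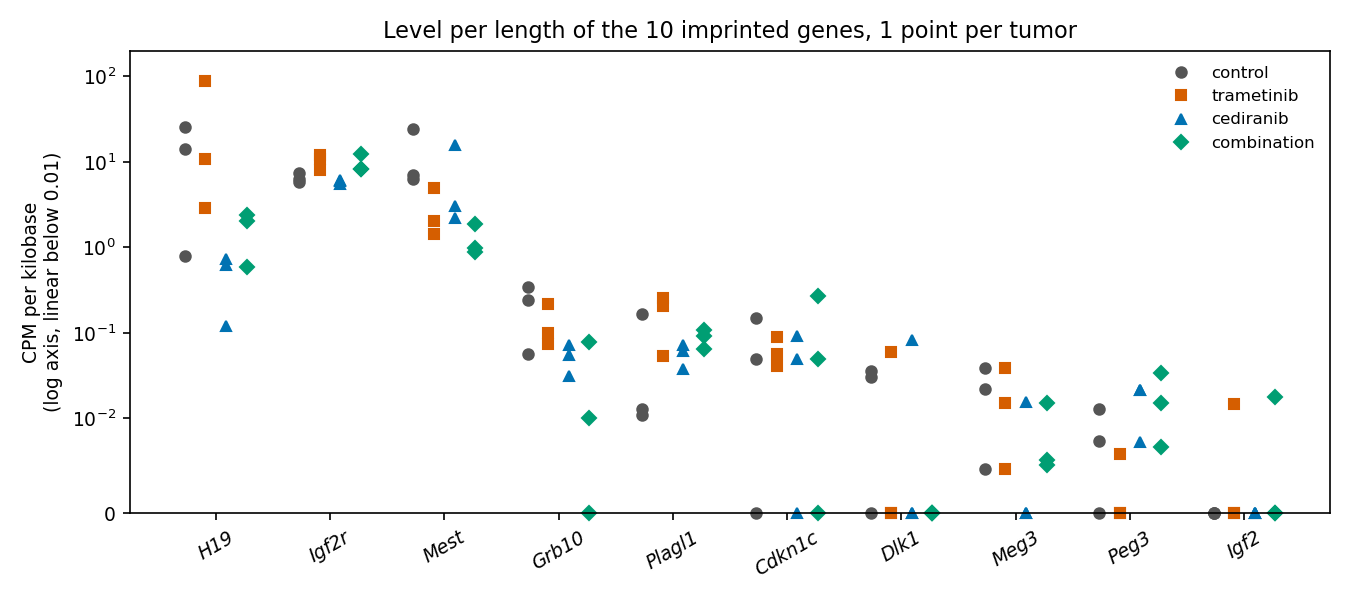
Level of each of the 10 imprinted genes in CPM per kilobase of gene model (vertical axis, logarithmic and linear below 0.01), with 1 point per tumor and the shape and color giving the treatment. H19, Igf2r and Mest lie above the other 7 genes in most tumors, and Igf2 is at 0 in 10 of the 12 tumors.

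The growth factor gene Igf2 had 2 counts in all 12 libraries together, 1 in a trametinib tumor and 1 in a combination tumor. It was at 0 in every control and cediranib tumor. Neighbors of H19 with which it shares a domain were as low, with 1 count for the non-coding gene Nctc1 and 0 for Ins2, an insulin gene. H19 itself had 3433 counts, so H19 was read in these tumors while Igf2 was not detectable at this depth with these exome probes. How well the probes capture each of the 2 genes was not tested, so this does not show that Igf2 was silent.

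The Dlk1 and Meg3 domain on chromosome 12 was close to empty too. Dlk1, which encodes a Notch-like membrane protein of preadipocytes, had 13 counts, of which 5 were in cediranib tumor 2, 4 in trametinib tumor 3 and 2 each in control tumors 1 and 3. Meg3, the non-coding RNA of the maternal copy, had 30 counts, with at most 7 in any 1 tumor. Of its neighbors, Rtl1 had 43 counts, Mirg 34 and Rian 13. Peg3, a zinc finger protein, had 19 counts and Cdkn1c, an inhibitor of cyclin-dependent kinases, had 18. The highest level of any of these 4 genes was 0.708 CPM, for Meg3 in control tumor 2, and none was tested.

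The insulin-like growth factor 2 receptor, Igf2r (chr17:12682406-12769664, minus strand), was the member with the least spread between tumors. It was at 69.6, 59.6 and 55.6 CPM in the 3 control tumors and at 56.0, 58.4 and 52.3 CPM in the cediranib tumors. In the trametinib tumors it was at 114, 102 and 77.0 CPM, and in the combination tumors at 77.0, 77.3 and 116 CPM. All 6 tumors given trametinib, alone or with cediranib, lay above all 6 tumors without it, and the control and cediranib tumors overlapped.

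The rise of Igf2r with trametinib was below the size used to call a gene. A gene was called at a false discovery rate (FDR, Benjamini-Hochberg over all genes tested) of at most 0.05 in edgeR's quasi-likelihood test with a log2 fold change of at least 1.5 in either direction, and is said to pass where only the FDR is met. Averaged over the tumors with and without cediranib, a contrast added after the values had been seen, Igf2r rose by 0.68 on the log2 scale with trametinib (SE 0.13, edgeR FDR 0.00416). The change stayed between 0.57 and 0.76 when any 1 tumor was left out, and the edgeR FDR then ran from 0.00301 to 0.0132. In that contrast 16.7% of all tested genes passed and 3.3% were called. Igf2r also rose against the cediranib tumors, by 0.81 (SE 0.18, edgeR FDR 0.0197) in the trametinib tumors and by 0.70 (SE 0.18, edgeR FDR 0.0408) in the combination tumors. Against the control tumors the log2 differences were 0.66 (edgeR FDR 0.0546) with trametinib and 0.55 (edgeR FDR 0.0785) with the combination, both short of the threshold. In these 2 contrasts DESeq2 gave FDRs of 0.0157 and 0.0405, and the likelihood ratio test 0.0275 and 0.0668. The edgeR FDRs were 0.0729 and 0.0451 with library totals, and 0.0881 and 0.109 with a replicate block. With cediranib alone the log2 difference from control was -0.15 (SE 0.18, edgeR FDR 0.999). With a score of endothelium markers in the model, added after the values were seen, the averaged difference was 0.87 at an edgeR FDR of 0.0824.

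The promoter window of Igf2r in RefSeq, from 250 bases before to 50 after the start (GRCm38.p6, chr17:12769657-12769956, minus strand), is shown because Igf2r passed in 3 contrasts. Capitals mark each CG pair, the site of DNA methylation in mammals.
Igf2r: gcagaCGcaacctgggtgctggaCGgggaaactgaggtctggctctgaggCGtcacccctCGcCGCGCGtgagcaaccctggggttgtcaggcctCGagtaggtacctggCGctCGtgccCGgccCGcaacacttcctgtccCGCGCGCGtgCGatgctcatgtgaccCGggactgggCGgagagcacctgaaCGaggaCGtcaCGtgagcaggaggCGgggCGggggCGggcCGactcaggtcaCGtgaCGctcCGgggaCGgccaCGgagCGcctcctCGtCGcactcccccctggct
It holds 34 CG pairs, more than 92.3% of the 32851 mouse windows of this length, whose median is 7. The antisense RNA of this domain, Airn, which silences the paternal copy in the embryo, had 0 counts in all 12 tumors. Airn is non-coding and overlaps Igf2r. With exome probes and an unstated handling of overlapping reads, its 0 counts do not show that it was absent.

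Mest, an alpha/beta hydrolase gene expressed in embryonic mesoderm and in growing fat, was the 1 member called in any contrast. It was at 24.7, 27.8 and 94.6 CPM in the control tumors and at 5.71, 19.4 and 7.94 CPM in the trametinib tumors. In the cediranib tumors it was at 11.97, 62.9 and 8.79 CPM, and in the combination tumors at 3.93, 3.53 and 7.32 CPM. Every trametinib and combination tumor lay below every control tumor, while the cediranib tumors overlapped the control and trametinib tumors and lay above the combination tumors.

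Mest fell with the combination against control, from 49.1 ± 39.5 to 4.93 ± 2.08 CPM (mean ± SD, n = 3 each), a log2 change of -3.31 (SE 0.82, edgeR FDR 0.0276). It also fell in the average over tumors with and without cediranib, by 2.33 (SE 0.56, edgeR FDR 0.0138). With trametinib alone the log2 difference was -2.17 (SE 0.77, edgeR FDR 0.131), and with cediranib alone -0.81 (SE 0.74, edgeR FDR 0.999). The call against control was lost without control tumor 3 (log2 change -2.41, edgeR FDR 0.111). It was also lost without combination tumor 1 (-3.17, edgeR FDR 0.0907), 2 (-3.11, edgeR FDR 0.0934) or 3 (-3.72, edgeR FDR 0.0592). The fall itself remained in each of these fits. The averaged contrast kept its call without any 1 of the 12 tumors, at edgeR FDRs of 0.00933 to 0.0392, but not with the muscle score in the model (-2.04, edgeR FDR 0.0588).

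Markers of the endothelium moved with Mest. The summed level of the 12 endothelium markers was 256 to 512 CPM in the control tumors and 160 to 399 CPM in the cediranib tumors, against 114 to 175 CPM with trametinib and 81.7 to 146 CPM with the combination. Of the 11 that were tested, 5 fell against control with trametinib, 6 with the combination and 0 with cediranib. Of all genes 6.11%, 9.97% and 0% passed in these contrasts. Over the 12 tumors, the log2 level of Mest had a Pearson r above 0.7 with 10 of the 11 tested endothelium markers and with 5 of the 5 tested erythroid markers, against 5.17% of all genes. It did so with 3 of 8 pericyte and 1 of 10 macrophage markers, and with none of the skeletal muscle, muscle progenitor, fibroblast, adipocyte, epidermis or hair follicle markers. With group means removed, the median r was 0.70 for erythroid, 0.68 for pericyte, 0.67 for fibroblast, 0.57 for endothelium and -0.76 for epidermis markers. Control tumor 3, with the highest Mest, also had the highest endothelium sum (512 CPM) and erythroid sum (1794 CPM), and the combination tumors had the lowest erythroid sums, 15.04 to 16.2 CPM. The genes most like it were the lymphangiogenesis gene Ccbe1 (r = 0.95), the signaling regulator Rgs16 (0.94) and the endothelial sphingosine receptor S1pr1 (0.93), then the pseudogene Rbpj-ps3 (0.93), the VEGF receptor gene Kdr (0.93) and the adhesion molecule gene Mcam (0.93). These are descriptions over 12 tumors that share treatment groups and libraries, and the choice of Mest for them was made after its values were seen.

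With the endothelium score as a term of the model, an alternative added after the values were seen, the log2 difference of Mest was 0.11 for the combination (edgeR FDR 0.979) and 0.45 for the averaged contrast (edgeR FDR 0.767). SVR cells are endothelial in origin, so in these groups a fall of Mest and a fall of endothelial RNA cannot be told apart. Of 20 tested epidermis markers 9 rose with the combination, where 9.97% of all genes passed. Their sums were 426 to 646 CPM against 109 to 185 CPM in control. With the epidermal score in the model the difference of Mest with the combination was -0.67 (edgeR FDR 0.827). The same score gave -3.02 with trametinib (edgeR FDR 0.00736) and -1.87 in the averaged contrast (edgeR FDR 0.00349). With the fibroblast score Mest was at -3.52 with trametinib (edgeR FDR 0.00737) and -2.93 with the combination (edgeR FDR 0.00565). In the averaged contrast that score gave -3.24 (edgeR FDR 0.000714). The part of these cell types in the result was not tested. The gene Copg2, which overlaps the end of Mest by 909 bases on the opposite strand, was between 13.8 and 22.4 CPM in all 12 tumors.

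Mest has 3 RefSeq windows, all inside the span in the table, and 2 of them start 3 bases apart. One of these 2, which tie for the most CG pairs (GRCm38.p6, chr6:30737800-30738099, plus strand), is shown as that of the member that was called, again with CG pairs in capitals.
Mest: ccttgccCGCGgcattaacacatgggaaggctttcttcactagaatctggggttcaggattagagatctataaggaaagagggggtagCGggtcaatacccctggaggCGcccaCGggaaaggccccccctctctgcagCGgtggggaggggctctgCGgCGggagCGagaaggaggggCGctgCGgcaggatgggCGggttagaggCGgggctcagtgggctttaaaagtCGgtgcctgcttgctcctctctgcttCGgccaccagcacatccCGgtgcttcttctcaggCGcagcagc
It holds 17 CG pairs, more than 68.6% of all windows, and the upstream window of Mest holds 8. Among the 15 windows of the 8 members that have 1, the count of CG pairs ran from 1 to 45 and was above the median of all windows in 12. Neither H19 nor Cdkn1c had a window. Of these 15 windows, 1 (Peg3) held GGGGCCCC, the core of the sequence bound by the zinc finger factor PLAGL1, and 1 (Meg3) held TATAAA, each searched on both strands. Of all windows 1.08% held the first and 13.6% the second.

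H19 itself had the widest range, from 0.30 to 217 CPM. It was at 1.96, 63.7 and 35.3 CPM in the control tumors and at 7.16, 217 and 26.4 CPM in the trametinib tumors. It was at 0.30, 1.79 and 1.53 CPM in the cediranib tumors and at 5.04, 1.45 and 5.93 CPM in the combination tumors. All 3 cediranib tumors lay below all 3 control tumors, but control tumor 1 lay close to cediranib tumor 2 and inside the range of the combination tumors.

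As the values that chose it, the level of H19 was 33.7 ± 30.9 CPM in control and 1.21 ± 0.797 CPM with cediranib (mean ± SD, n = 3 each), a log2 difference of -4.77 (SE 1.43). It was between -5.35 and -3.91 when any 1 tumor of either group was left out, and -3.92 without the 2 muscle-rich tumors. Described in the same way, the log2 difference of the combination from control was -3.02 (SE 1.24), and -2.16 without the 2 muscle-rich tumors. It was 0.61 with the epidermal or 0.47 with the endothelium score in the model. The difference of the combination from trametinib was -4.33 (SE 1.29). Trametinib against control, which holds no cediranib, gave 1.31 (SE 1.11, edgeR FDR 0.575), which became -0.997 without trametinib tumor 2 and -0.14 without both muscle-rich tumors.

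**Figure D2:**
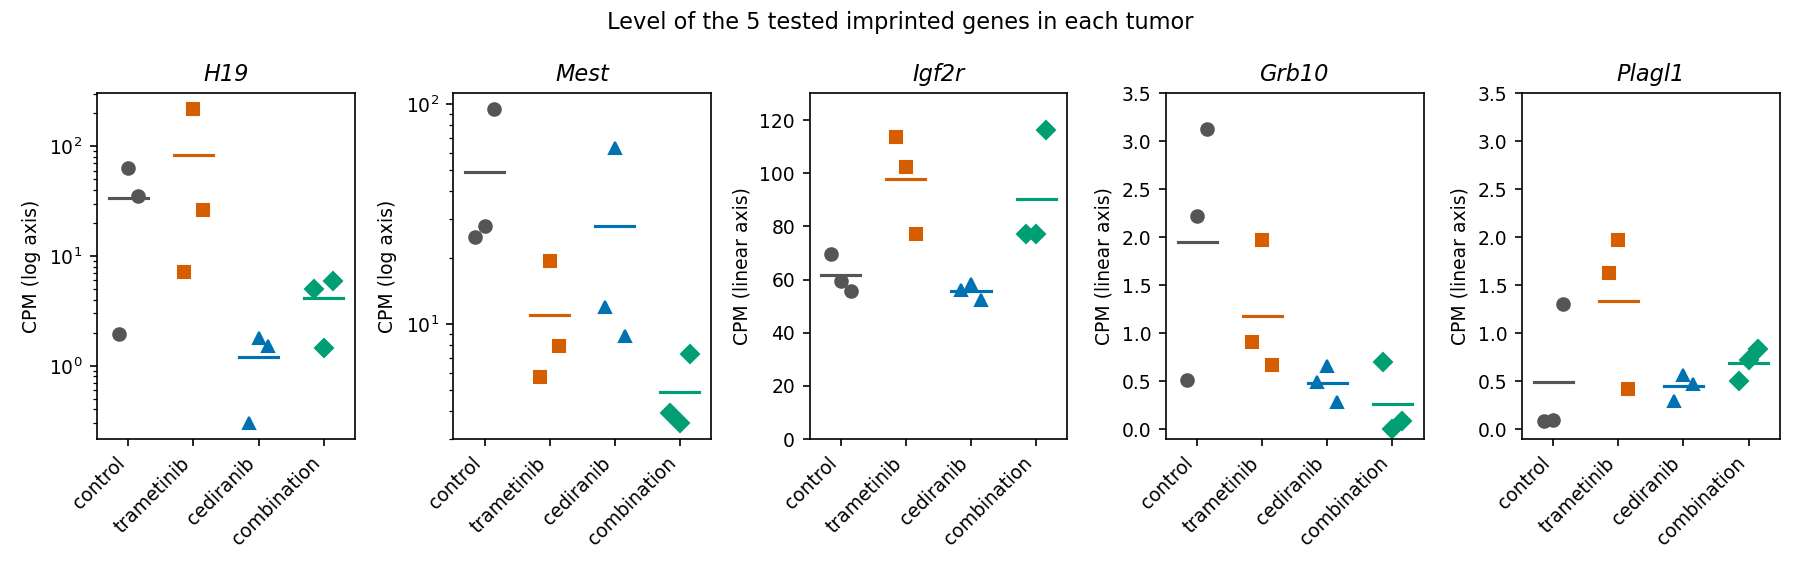
Level of the 5 tested genes in each tumor in CPM (vertical axis, logarithmic for H19 and Mest, linear for Igf2r, Grb10 and Plagl1), with 1 point per tumor and a line at each group mean. All 6 tumors given trametinib are above the other 6 for Igf2r, all control tumors are above the trametinib and combination tumors for Mest, and the 3 cediranib tumors are at or below 1.79 CPM for H19.

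The skeletal muscle genes Myoz1 and Ckmt2 were among the 6 genes most like H19. The most alike by Pearson r of log2 CPM over the 12 tumors was Gm27786 (0.99). This 70-base gene model lies on the opposite strand inside an H19 exon, and had 2820 counts against 3433 for H19. The strand setting is not stated, so the same reads may enter both counts. The level of H19 per kilobase may then rest on a short stretch. After Gm27786 came the homeobox gene Hoxc5 (0.91), Islr (0.90), the muscle gene Myoz1 (0.89) and the mitotic gene Ube2c (0.88). Ckmt2, the mitochondrial creatine kinase gene of muscle, was next (0.88). Of the 16 tested skeletal muscle markers, 10 (62.5%) had an r above 0.7 with H19, against 2.24% of all genes, and their median r was 0.71. With group means removed it was 0.54, where that of the pericyte markers was 0.61. Of the 10 tested fibroblast markers 3 did so (30%), as did 1 each of 10 macrophage, 8 pericyte and 5 muscle progenitor markers, and 0 of 11 endothelium, 20 epidermis, 11 hair follicle, 5 adipocyte and 5 erythroid markers.

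No likeness to H19 was computed without the 2 muscle-rich tumors. The 2 tumors with the highest H19, trametinib tumor 2 and control tumor 2, were also those with the highest skeletal muscle sums. Control tumor 3 went against this, with H19 at 35.3 CPM and the lowest muscle sum of all, 26.0 CPM. Its fibroblast sum, 21054 CPM, was second only to the 36875 CPM of trametinib tumor 2, and the sums of the other 10 ran from 1603 to 16431 CPM. The cediranib tumors held muscle sums of 44.3 to 270 CPM and fibroblast sums of 1603 to 6734 CPM. The difference of H19 between cediranib and control was -4.15 with the muscle score in the model, -3.74 with the endothelium score, -3.51 with the fibroblast score and -3.14 with the epidermal score. Averaged over tumors with and without trametinib it was -4.55, and -1.43 with the epidermal score. Epidermis sums were 126 to 392 CPM with cediranib and 426 to 646 CPM with the combination, against 103 to 185 CPM in the tumors without cediranib. The fast muscle troponin genes Tnnt3 and Tnni2, which lie within 150 kilobases of H19, reached 253 and 138 CPM in trametinib tumor 2 and 178 and 108 CPM in control tumor 2, and stood at 0 and 0.81 CPM in control tumor 3. The part of muscle, fibroblasts, skin and other host tissue in the H19 levels was not tested.

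**Figure D3:**
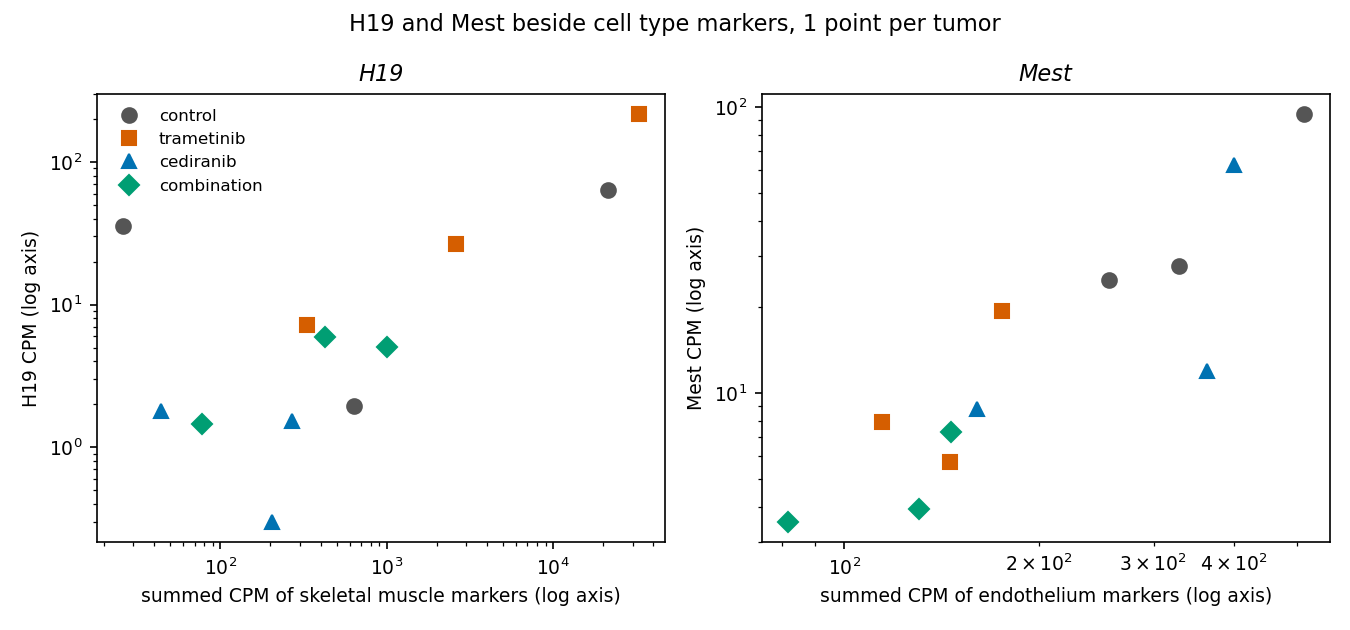
Left, H19 against the summed level of 18 skeletal muscle markers, and right, Mest against that of 12 endothelium markers, in CPM on logarithmic axes with 1 point per tumor. The 2 muscle-rich tumors have the highest H19, control tumor 3 has a high H19 at the lowest muscle sum, and Mest is lowest in the combination tumors, where the endothelium sums are 81.7 to 146 CPM.

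Grb10, an adaptor that binds and dampens the insulin and IGF1 receptors, was low, with 117 counts in all. It was at 0.51, 2.23 and 3.13 CPM in control, at 0.91, 1.97 and 0.67 CPM with trametinib, at 0.50, 0.66 and 0.29 CPM with cediranib and at 0.71, 0 and 0.09 CPM with the combination. The cediranib-treated tumors were at the low end, but control tumor 1 and trametinib tumor 3 lay among them. The log2 difference from control was -1.98 (SE 0.87, edgeR FDR 0.999) with cediranib and -2.86 (SE 0.94, edgeR FDR 0.0745) with the combination, and averaged over tumors with and without trametinib it was -2.05 (SE 0.65, edgeR FDR 0.154). With the combination, edgeR called it without combination tumor 1 (-5.08, FDR 0.0362) or control tumor 1 (-3.32, FDR 0.0411), DESeq2 called it with all tumors (-2.90, FDR 0.0297), and with the endothelium score in the model edgeR gave 0.13 (FDR 0.988). Of the members, Grb10 was the most like H19 over the 12 tumors (r = 0.70, and 0.69 after group means were removed).

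Plagl1, a zinc finger transcription factor that can act on other imprinted genes, had 91 counts. It was at 0.09, 0.10 and 1.31 CPM in control, at 1.63, 1.97 and 0.42 CPM with trametinib, at 0.30, 0.57 and 0.48 CPM with cediranib and at 0.50, 0.72 and 0.83 CPM with the combination. The groups overlapped. The log2 difference from control was 1.42 with trametinib (SE 0.84, edgeR FDR 0.379), -0.12 with cediranib (SE 0.92, edgeR FDR 0.999) and 0.49 with the combination (SE 0.88, edgeR FDR 0.769). Without control tumor 3 the first of these was 3.68 (edgeR FDR 0.0477).

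**Figure D4:**
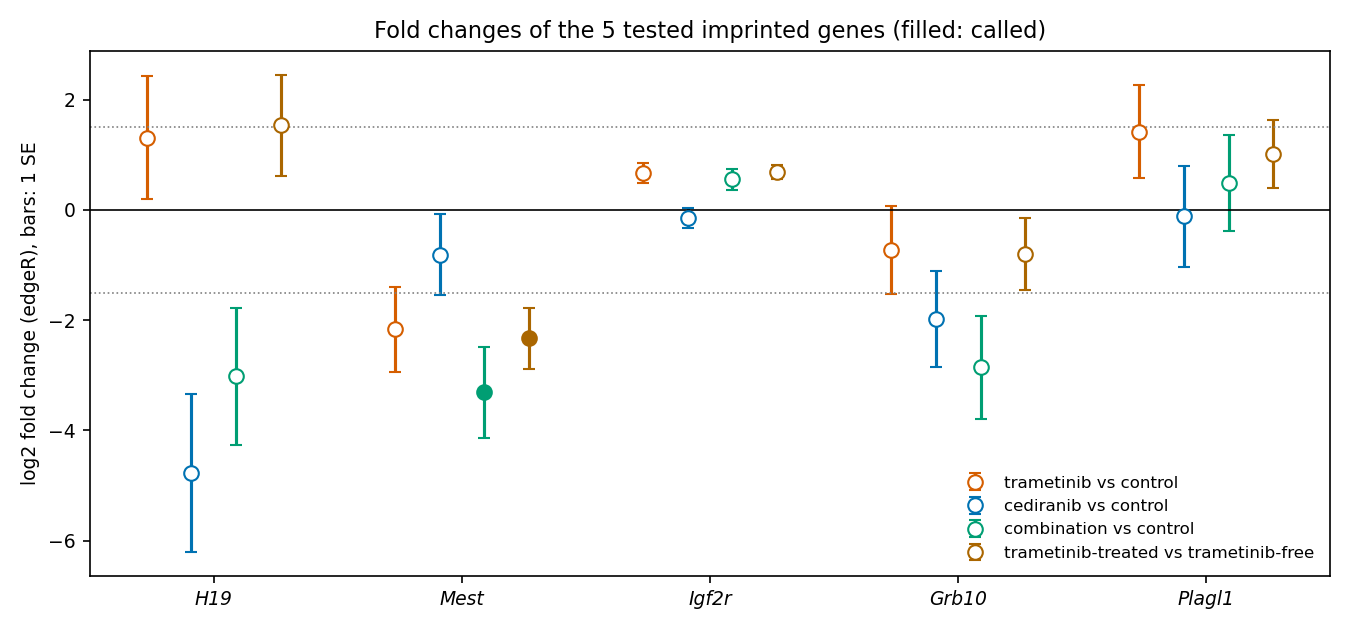
Log2 fold changes of the 5 tested genes from edgeR (points, with bars of 1 SE) for the 3 treatments against control and for all trametinib-treated against all trametinib-free tumors, with filled points where the gene was called and dotted lines at a log2 change of 1.5 in either direction. The 2 filled points are Mest, at -3.31 for the combination and -2.33 for the averaged contrast, and the H19 points for cediranib, the combination and the averaged contrast are descriptions with no test.

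The members were set against the calls over all genes in each contrast, H19 being left out wherever cediranib entered. Against control 0 of 4 members were called with cediranib, and neither was any of the 12897 genes (0%), of which 557 had an unadjusted p under 0.05 in edgeR, Grb10 among them, while DESeq2 called 10 genes in all and none of the members to which it gave an adjusted p (Mest and Igf2r). With trametinib 0 of 5 were called or passed, where 2.4% of all genes were called and 6.11% passed. With the combination 1 of 4 was called, Mest, where 3.61% were called and 9.97% passed. Between combination and trametinib 0 of 4 were called or passed, with 0.675% and 0.969% over all genes. Between combination and cediranib 0 of 4 were called and 1 passed, Igf2r, with 2.44% and 7.68%. The same held between trametinib and cediranib, with 3.49% and 8.65%. In the average over tumors with and without trametinib, 0 of 4 were called for cediranib, where 0.62% of genes were.

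Whether the effect of cediranib differed with and without trametinib was asked of the interaction term. It called 0 of 4 members and 0% of all genes, and 909 genes but none of the 4 members had an unadjusted p under 0.05. The interaction estimates were -0.33 (SE 1.08) for Mest, -0.14 (SE 1.14) for Grb10, -0.81 (SE 1.23) for Plagl1 and 0.04 (SE 0.26) for Igf2r on the log2 scale.

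Other imprinted genes give the wider setting. Of the 64 that were found, 8 had no count, 23 had 1 to 29 counts over the 12 tumors, 8 with more counts did not pass the filter, and 25 were tested. The highest was Gnas, which encodes the stimulatory G protein alpha subunit, at a mean of 3297 CPM, followed by the signal peptide peptidase gene H13 (312 CPM) and the ubiquitin ligase gene Ube3a (290.3 CPM). Against control, with trametinib 1 of 25 rose and 1 fell, with the combination 2 rose and 2 fell, and with cediranib 0 passed, where 6.11%, 9.97% and 0% of all genes passed. The medians were 0.15, 0.29 and 0.04 on the log2 scale, where all tested genes had 0.00573, 0.00143 and -0.00268.

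Peg10, a paternally expressed gene derived from a retroelement, rose with trametinib from 9.86 ± 2.73 to 30.4 ± 8.03 CPM (log2 change 1.62, SE 0.34, edgeR FDR 0.0145). H13 fell with trametinib (log2 change -0.71, SE 0.17, edgeR FDR 0.0311) and with the combination (-1.06, SE 0.17, edgeR FDR 0.00488). With the combination Gatm, which encodes an enzyme of creatine synthesis, fell by 2.12 (SE 0.40, edgeR FDR 0.00888). Ppp1r9a, a neighbor of Peg10, rose by 2.54 (SE 0.56, edgeR FDR 0.0161), and Impact, a translation regulator gene, rose by 0.89 (SE 0.25, edgeR FDR 0.0411). In the averaged contrast of trametinib 7 of 25 rose and 4 fell, beside the 16.7% of all genes that passed, and 1 of the 7, Dcn, is also a fibroblast marker.

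Factors that set or keep imprints came next. Of 21 tested genes for DNA methylation, its removal and chromatin, 1 fell with trametinib, the 5-methylcytosine oxidase gene Tet3 (log2 change -0.57, SE 0.14, edgeR FDR 0.0375). With the combination 1 rose, the histone methyltransferase gene Ezh2 (0.48, SE 0.13, edgeR FDR 0.0434), and with cediranib 0 passed. Of all genes 6.11% passed with trametinib, 9.97% with the combination and 0% with cediranib. The medians of these 21 genes against control were 0.00256 with trametinib, 0.10 with cediranib and 0.16 with the combination.

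Of 17 tested partners of Igf2 and Igf2r in the IGF axis, 2 rose and 1 fell with trametinib, 4 fell with the combination and 0 passed with cediranib, with medians of -0.35, -0.30 and -0.13. Of all genes 6.11% passed with trametinib and 9.97% with the combination. With trametinib Igfbp2, an IGF binding protein gene, rose from 0.315 ± 0.203 to 5.53 ± 3.85 CPM (log2 change 4.07, SE 0.81, edgeR FDR 0.0113), and Irs1, a substrate of the insulin and IGF1 receptors, rose by 1.90 (SE 0.50, edgeR FDR 0.0452). Hmga2, a chromatin protein that acts upstream of Igf2bp2, fell with trametinib from 401 ± 79.8 to 79.8 ± 22.1 CPM, a log2 change of -2.33 (SE 0.22, edgeR FDR 0.000102), and with the combination a change of -1.23 (SE 0.21, edgeR FDR 0.0059).

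With the combination 3 further IGF axis genes fell against control. Igf2bp1, an RNA-binding protein that carries the Igf2 and H19 RNAs, went from 5.97 ± 2.98 to 0.528 ± 0.213 CPM (log2 change -3.45, SE 0.68, edgeR FDR 0.0103). Igfbp3 went from 30.8 ± 11.9 to 3.54 ± 1.14 CPM (-3.12, SE 0.38, edgeR FDR 0.000932) and Igfbp7 from 55.3 ± 29.8 to 14.7 ± 4.35 CPM (-1.91, SE 0.46, edgeR FDR 0.0254). The comparisons with control share the same 3 control tumors.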

How the data were processed

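RNA of 12 SVR tumors was made into exome-captured libraries, which the study selected because RNA degradation was relatively frequent. Per the labels and the study's methods, the authors aligned reads to GRCm38 with STAR 2.7.1a and deposited raw gene counts from featureCounts 1.6.0, 1 column per tumor. No source used here gives the annotation release, the strand setting or how overlapping and multiply mapped reads were treated, so reads of overlapping genes may be shared. All 12 columns were used and 0 were left out.

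Counts were tested with edgeR 4.0.16 in R 4.3.3, in 1 fit of the 4 groups. Settings were filterByExpr with a minimum count of 10 and total of 15, TMM, glmQLFit and glmQLFTest. The fit was tested on simulated data in which no gene as low as Grb10 or Plagl1 was changed, so that test does not cover them. Log2 CPM for likeness used a prior count of 2. Lengths are those in the table, and for H19 exceed its listed span. Strand, overlaps and exons came from GENCODE vM21, sequences from RefSeq tables. No 2 libraries were identical.

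The members, gene lists and comparisons were chosen with earlier results of these data known. The genes named are the 10 members, the 4 genes of each list with the smallest p per direction in trametinib and combination against control, and the 6 genes most like H19. Neighbors and overlapping genes of members (Mir675, Mir335, Mir483, Rtl1, Mirg, Rian, Nctc1, Ins2, Airn, Copg2, Tnnt3, Tnni2) were named after their values were seen. So were the markers Cdh5, Kdr, Vwf, Pecam1 and Emcn, the imprinted genes of highest level (Gnas, Ube3a) and Dcn. The likeness of Mest, the 2 averaged contrasts, the fibroblast and endothelium scores and the fit without both muscle-rich tumors were added after the data were seen. Alternatives were DESeq2 1.42.0, the likelihood ratio test, library totals, no filter, fits of 2 groups, a replicate block, marker scores as a term, and each tumor left out.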

Additional observations from a re-analysis of the deposited data

How the results depend on the processing

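With 3 tumors per group and at most 1867 counts of H19 in any tumor, the wide spread between tumors limits what these contrasts can show, and the 5 untested genes allow no statement on change. Of 25 log2 fold changes followed under 466 alternatives, 13 changed sign under at least 1 alternative, in 27 cases, and 18 alternatives gave another call without a change of sign; unless a value beside a result shows otherwise, the cause was not tested. The replicate block changed no call (Mest with the combination stayed at -3.26, Igf2r in the averaged contrast of trametinib at 0.68), and the correlations of same-numbered tumors, from -0.219 to 0.356, do not show that the numbers pair tumors. Library totals in place of TMM changed no call either. For trametinib against control, where no member was called, 1 member was called with no filter on low counts, with the epidermal score and with the fibroblast score, and 0 to 1 when 1 tumor was left out. For the combination against control, with 1 called member, DESeq2 and the likelihood ratio test called 2, no filter did so too, and the epidermal and endothelium scores called 0; leaving out 1 tumor gave 0 to 2, with the call passing from Mest to Grb10 without combination tumor 1. Over all genes that contrast called 466, against 1129 with no filter, 62 with the epidermal score and 24 with the endothelium score. For the combination against cediranib, with 0 called members, DESeq2, the likelihood ratio test, no filter, the fibroblast score and the FDR with no minimum fold change each called 1. For trametinib against cediranib, with 0, the FDR with no minimum fold change, the epidermal score and the fibroblast score called 1. In the averaged contrast of trametinib, with 1, the FDR with no minimum fold change called 2, the muscle and endothelium scores called 0, and leaving out 1 tumor gave 1 to 2. In that of cediranib, with 0, the likelihood ratio test and no filter called 1. H19 in trametinib against control turned to -0.17 with the muscle score, -0.43 with the fibroblast score, -0.14 without both muscle-rich tumors and -0.997 without trametinib tumor 2, within a range of -0.997 to 2.17 when 1 tumor was left out. H19 in the combination against control turned to 0.61 with the epidermal and 0.47 with the endothelium score. Under the endothelium score Mest turned to 0.67 with trametinib, 0.11 with the combination and 0.45 in the averaged contrast, Grb10 to 1.78, 0.13 and 1.48 in the same 3, and Plagl1 to 0.87 with cediranib and 0.25 in the averaged contrast of cediranib. With cediranib Mest turned to 0.060 (epidermal score) and 0.028 (fibroblast score) and ranged from -2.24 to 0.086 when 1 tumor was left out, the highest without control tumor 3, and in the averaged contrast to 1.21 and 0.31 with these 2 scores. Plagl1 turned with cediranib to 0.44 (epidermal), 1.67 (fibroblast), 2.14 (without control tumor 3) and 0.092 (without cediranib tumor 1), and in the averaged contrast to 0.48, 1.36 and 0.60 with the first 3 of these. With 1 tumor left out it ranged from -0.65 to 2.14 with cediranib, from -0.78 to 0.60 in the averaged contrast, and from -0.035 (without control tumor 1) to 2.74 with the combination.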
